A study of Sorghum bicolor with 4 samples.

Results

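The phenylalanine ammonia-lyase genes of sorghum were followed in the stem between grain filling and maturity. The family was taken as 8 Sobic gene identifiers: 5 consecutive ones on chromosome 4 (Sobic.004G220300 to Sobic.004G220700), a neighbouring pair on chromosome 6 (Sobic.006G148800 and Sobic.006G148900), and Sobic.001G160500 on chromosome 1, with chromosomes read from the identifiers. They occupy 7 of the 34458 loci of the deposited table, because the chromosome 6 pair shares 1 row. The table pairs no identifier with a gene name, so membership of the family comes from the identifiers and not from these data.

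Stems came from sweet sorghum of the line ICSA38, a sorghum whose stalk accumulates sugar, raised in an open field. Middle internodes were sampled at the milk stage of the grain and at physiological maturity, with 2 RNA-seq libraries for each stage. The authors deposited 1 FPKM value (fragments scaled by locus length and by a measure of library size) for each locus and stage, whose column heading fits both libraries of that stage. No value therefore has a standard deviation, no difference has a test, and no difference can be set against the spread between libraries. The labelled tissue was not checked against marker genes, since the table names none.

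Phenylalanine ammonia-lyase removes ammonia from phenylalanine to give cinnamate, the entry step from primary metabolism into the phenylpropanoids. In stems much of this flow goes to lignin, the polymer that stiffens secondary walls of xylem and fibres. Other branches lead to wall-bound hydroxycinnamates, flavonoids and defence compounds. Plants carry several gene copies, often in tandem, and in grasses some copies encode enzymes that also accept tyrosine and so make coumarate directly. Which of the sorghum copies do so is not given by the sources used here.

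The expressed members had similar deposited values at both stages except on chromosome 6. The row that holds Sobic.006G148800 and Sobic.006G148900 was at 23.3 FPKM in milk-stage internodes and 131 FPKM at maturity, a 5.62-fold higher level. The 5 chromosome 4 copies together were at 523 FPKM and 530 FPKM. The chromosome 1 copy was the lowest member at both stages. Since the tissue was measured in bulk, fewer cells of a type and less RNA per cell cannot be told apart in any of these values.

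**Figure D1:**
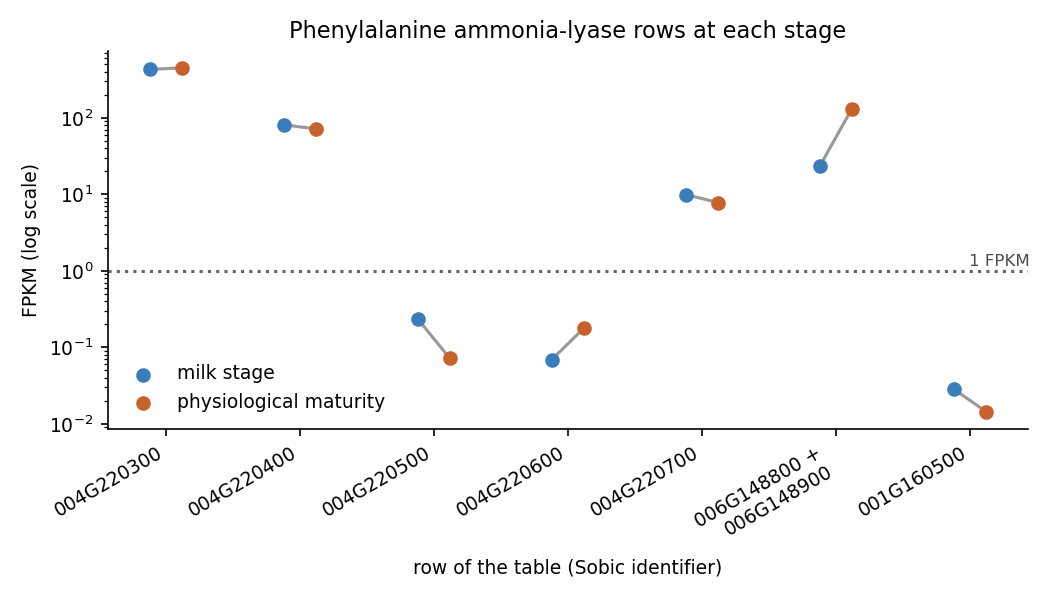
FPKM of the 7 phenylalanine ammonia-lyase rows at the milk stage (blue) and at physiological maturity (orange), on a log scale, with 1 authors' value per row and stage and no error bar. The chromosome 6 row goes from 23.3 to 131 FPKM, the 3 expressed chromosome 4 rows are nearly level, and 3 rows lie under the dotted line at 1 FPKM.

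Within the chromosome 4 array, levels differed far more between copies than between stages. Sobic.004G220300, the first copy in identifier order, was at 431 FPKM in milk-stage internodes and 450 FPKM at maturity. It was the most abundant member at each stage and ranked 238th of all loci at the milk stage and 158th at maturity. Its log2 difference, taken between maturity and the milk stage after adding 1 FPKM to each value, was 0.06, against a median of 0.04 over all loci compared.

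The second copy, Sobic.004G220400, was at 81.3 FPKM in milk-stage internodes and 71.8 FPKM at maturity, with a log2 difference of -0.18. Its level per length was 5.31-fold below that of the first copy at the milk stage and 6.26-fold below it at maturity. The fifth copy, Sobic.004G220700, was at 9.95 FPKM and 7.84 FPKM, with a log2 difference of -0.31. The order of these 3 copies was thus the same at each stage, and their differences lay within the interquartile range of all loci compared (-0.48 to 0.57).

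The copies between them were barely detected. Sobic.004G220500 was at 0.237 FPKM in milk-stage internodes and 0.0721 FPKM at maturity. Sobic.004G220600 was at 0.0689 FPKM and 0.178 FPKM. These copies lay under 1 FPKM at each stage, and they differed in opposite directions. With the number of fragments behind each value unknown, such levels may rest on very few fragments, and no conclusion is drawn from their differences.

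The chromosome 1 copy, Sobic.001G160500, was at 0.0286 FPKM in milk-stage internodes and 0.0145 FPKM at maturity. Unlike the other members, it carries no locus number from the authors' transcript assembly and appears in the table under its own identifier with the suffix v3.2.

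Reads from near-identical copies can be placed on more than 1 of them. How such reads were assigned is not given in the sources used here, so the division of the chromosome 4 signal among its copies is uncertain, more so for the low copies beside an abundant one. The sum over the array depends less on the division within it. Sequences were not compared, so it is not known whether the array shares reads with the chromosome 6 pair. Such sharing would bear on the array sum, the chromosome 6 row and the family shares given below.

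Of the 7 family rows, 4 reached 1 FPKM at either stage and were compared, 2 with a higher value at maturity and 2 with a lower one. The chromosome 6 row was the only one at least 2-fold apart, in the upward direction. Over all 18749 loci compared, 22.3% differed by at least 2-fold, with 11.5% higher and 10.7% lower, so a count of 1 in 4 rows is no result about the family. The other 3 compared rows lay on chromosome 4, with log2 differences from -0.31 to 0.06.

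The size of the chromosome 6 difference stood further out. Its log2 difference was 2.44, or 5.43-fold after adding 1 FPKM to each value. Of the 18749 loci compared, 98.9% had a lower difference and 206 a larger one. The row is described here because it differed most of the 4 compared, so its standing is that of a row picked by size. A difference of at least 4-fold upward was found for 2.22% of all loci compared and for 2.17% of the 5258 loci whose stage mean was from 20 to 100 FPKM, the range that holds the chromosome 6 row. Within that range, 61 loci had a larger log2 difference. In FPKM units its increase of 108 FPKM ranked 149th among all loci, and its rank by level went from 5741st at the milk stage to 867th at maturity.

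The row joins 2 identifiers, and its value cannot be assigned to either gene. The increase may be that of 1 of them or of both. Of the 1176 rows compared that join several identifiers, 11.7% were at least 2-fold higher and 2.47% at least 4-fold higher, beside 11.5% and 2.22% over all loci compared, a difference that was not tested. Of these joined rows, 12 had a larger log2 difference than the chromosome 6 row. How the length of a joined row enters its FPKM is not given, so its level beside single-gene rows is less certain than its ratio between stages.

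**Figure D2:**
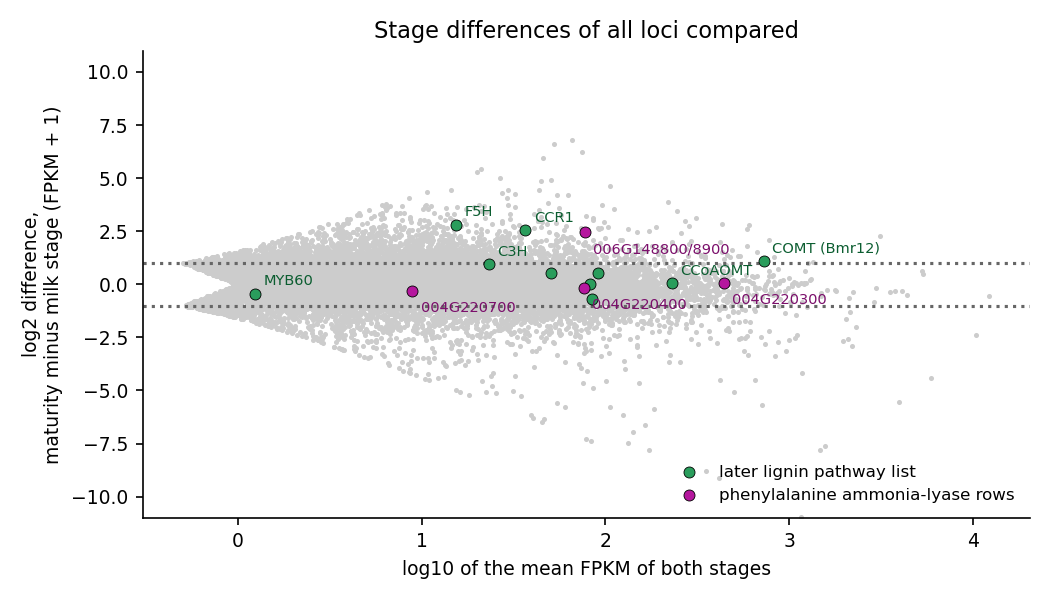
Log2 difference between maturity and milk stage (FPKM + 1) against the log10 mean FPKM of both stages, for the 18749 loci compared (grey), the 4 compared phenylalanine ammonia-lyase rows (magenta) and 10 other genes of the lignin pathway (green, some unlabelled where they crowd). Dotted lines mark 2-fold differences; the chromosome 6 row lies at 2.44, above the upper line, while the chromosome 4 rows lie close to 0.

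Among the 4 rows compared, the order by level changed only in the place of the chromosome 6 row. At the milk stage the chromosome 6 row came below both leading chromosome 4 copies, 3.50-fold below Sobic.004G220400. At maturity it came next after Sobic.004G220300, 1.82-fold above Sobic.004G220400. Sobic.004G220300 stayed first, by 18.5-fold over the chromosome 6 row at the milk stage and by 3.44-fold at maturity. Without values per library, it is not known whether neighbours in this order differ beyond their spread.

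Summed over all 7 rows, the family was at 546 FPKM in milk-stage internodes and 660 FPKM at maturity, a 1.21-fold higher level and a log2 difference of 0.27. This sum was 0.0682% of the FPKM of all loci at the milk stage and 0.0990% at maturity. As deposited, the chromosome 6 row supplied 94.0% of the increase of 114 FPKM. Without it the log2 difference of the family sum was 0.02. Both values depend on the scaling between stages. As a share of the FPKM of all loci, the chromosome 4 array also went up, from 0.0653% to 0.0794%. Without Sobic.004G220300, which outweighs the rest, the sum of the remaining rows went from 115 to 211 FPKM, with a log2 difference of 0.87.

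The composition of the family shifted accordingly. Sobic.004G220300 made up 79.0% of the summed FPKM in milk-stage internodes and 68.1% at maturity, and Sobic.004G220400 made up 14.9% and 10.9%. The chromosome 6 row went from 4.26% to 19.8%. The array as a whole went from 95.7% to 80.2% of the family while its own deposited FPKM was nearly level. These shares do not depend on the scaling between stages by a common factor.

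**Figure D3:**
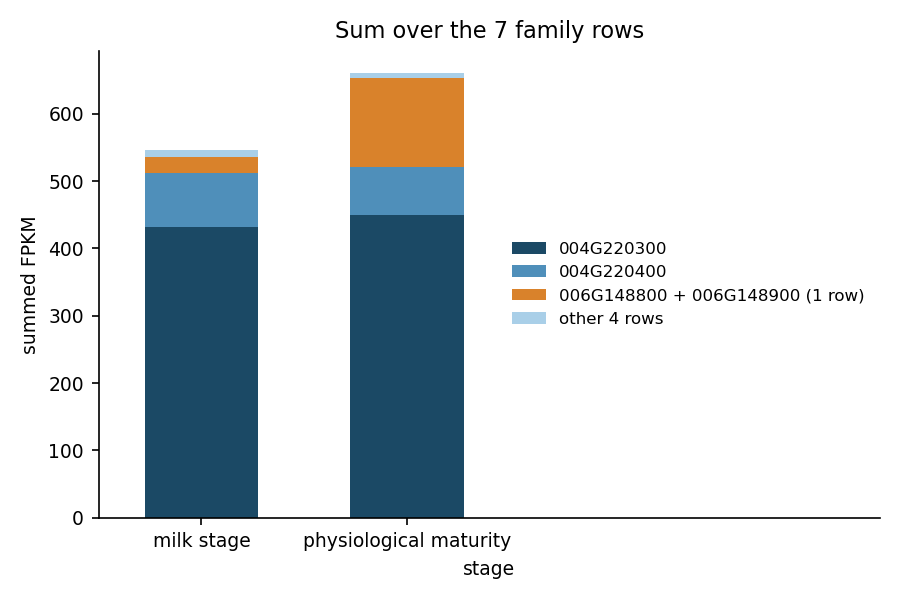
FPKM summed over the 7 family rows at each stage, as stacked bars from 0, with Sobic.004G220300, Sobic.004G220400, the chromosome 6 row and the remaining 4 rows. The sum is 546 FPKM in milk-stage internodes and 660 FPKM at maturity, and the chromosome 6 part grows from 23.3 to 131 FPKM.

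Scaling bears on the smaller differences. The deposited values summed to 800834 FPKM over all loci for the milk stage and to 666768 FPKM at maturity. When each stage was set to the same sum, Sobic.004G220400 turned from -0.18 to 0.08, and the family sum went from 0.27 to 0.54. The dominant copy, Sobic.004G220300, went from 0.06 to 0.32, and Sobic.004G220700 from -0.31 to -0.07. Quantile normalization gave 0.58 for the family sum, 0.42 for Sobic.004G220300 and -0.41 for Sobic.004G220700. Over those scalings, median-of-ratios scaling, the other pseudocounts and the plain ratio, the log2 difference of the chromosome 6 row ran from 2.41 to 2.70. The chromosome 4 array is called nearly level for the deposited values only.

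Genes that act after phenylalanine ammonia-lyase on the way to lignin were set beside the family, as a list of 9 enzymes and 1 transcription factor named by identifiers recalled from the literature. These names are not in the files and were not checked against an annotation, so each gene's role below rests on them. Of the 10, 8 had a higher value at maturity and 2 a lower one. At least 2-fold differences numbered 3 upward and 0 downward, beside 11.5% and 10.7% over all loci compared. The median log2 difference was 0.53, against 0.04 over all loci compared. The list was chosen with earlier results of these data known, so these comparisons are descriptive and were not tested.

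The next enzyme, cinnamate 4-hydroxylase, turns cinnamate into coumarate. Its gene Sobic.002G126600 was at 81.4 FPKM in milk-stage internodes and 82.9 FPKM at maturity, with a log2 difference of 0.03. Like the chromosome 4 array, it was nearly level as deposited. The family sum was 6.71 times the level of this gene at the milk stage and 7.96 times at maturity.

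Coumarate-CoA ligase, which activates coumarate for the later steps, is encoded at Bmr2 (Sobic.004G062500), at 74.5 and 108 FPKM. The hydroxycinnamoyl transferase gene HCT (Sobic.004G212300) was at 105 FPKM in milk-stage internodes and 64.4 FPKM at maturity, the only enzyme gene of the list with a lower value at maturity. The coumarate 3-hydroxylase gene (Sobic.009G181800), whose enzyme acts on the HCT product, was at 15.4 and 31.0 FPKM. Its plain ratio was 2.01, but its log2 difference of 0.96 after adding 1 FPKM stayed below the 2-fold limit.

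Larger differences came late in the pathway. CCR1 (Sobic.007G141200), a cinnamoyl-CoA reductase that makes the aldehydes from which monolignols are formed, was at 10.05 FPKM in milk-stage internodes and 63.3 FPKM at maturity, with a log2 difference of 2.54. Ferulate 5-hydroxylase (Sobic.001G196300), which directs precursors to syringyl units, was at 3.10 and 27.8 FPKM, with a log2 difference of 2.81. These 2 genes had a larger log2 difference than the chromosome 6 row. Caffeic acid O-methyltransferase (Bmr12, Sobic.007G047300), which methylates syringyl precursors, was at 463 and 997 FPKM, 2.15-fold higher. It was below the family sum at the milk stage and above it at maturity.

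The remaining genes of the list were closer between the stages. The caffeoyl-CoA O-methyltransferase gene (Sobic.010G052200) was at 226 and 235 FPKM. Cinnamyl alcohol dehydrogenase (Bmr6, Sobic.004G071000), which makes the alcohols that are polymerised, was at 41.1 and 59.9 FPKM. MYB60 (Sobic.004G273800), a transcription factor reported to activate monolignol genes in sorghum when overexpressed, was at 1.58 FPKM in milk-stage internodes and 0.896 FPKM at maturity, which is below every enzyme of the list.

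**Figure D4:**
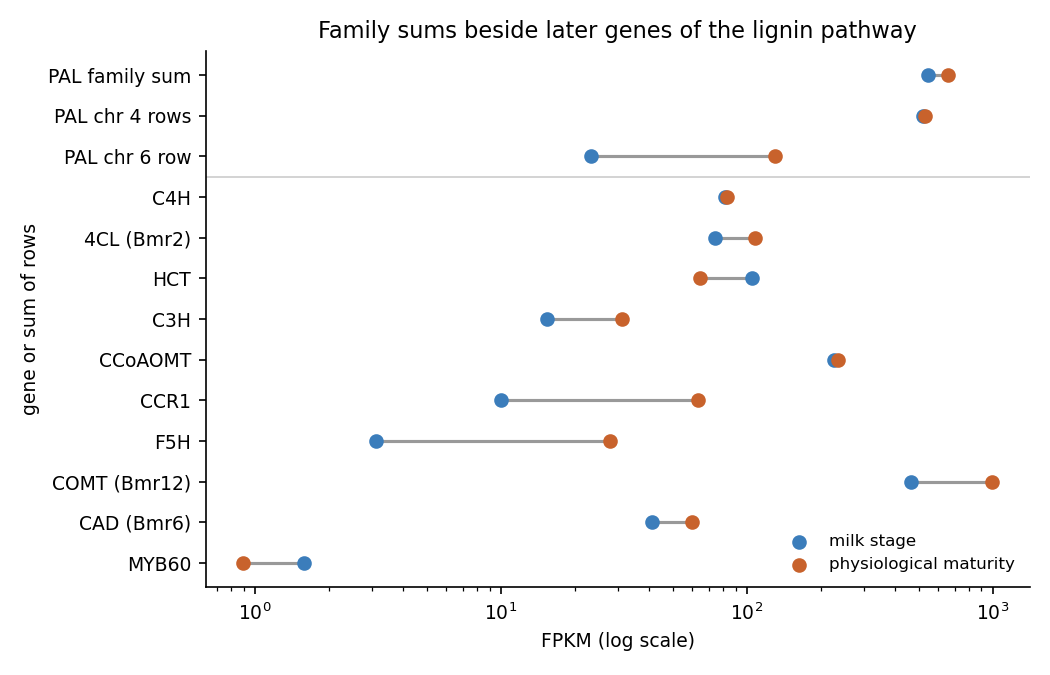
FPKM at the milk stage (blue) and at physiological maturity (orange) on a log scale for the family sum, its chromosome 4 and chromosome 6 parts, and 10 genes of the later lignin pathway in approximate pathway order. The chromosome 6 row, CCR1 and ferulate 5-hydroxylase show the widest gaps (23.3 to 131, 10.05 to 63.3 and 3.10 to 27.8 FPKM), whereas the chromosome 4 sum and C4H are nearly level.

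Loci numbered beside the members were examined for the same pattern, taking 2 on each side of each group in identifier order. Of these 12 loci, 3 reached 1 FPKM at either stage, 0 were at least 2-fold apart, and 6 were listed at 0 at each stage. Beside the chromosome 6 row, Sobic.006G148700 was at 16.5 and 19.5 FPKM, and Sobic.006G149101 at 69.7 and 66.6 FPKM. Between that row and Sobic.006G149101, Sobic.006G149000 was at 0.781 FPKM in milk-stage internodes and listed at 0 at maturity. None of these 3 loci came near the difference of the chromosome 6 row.

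Beside the chromosome 4 array, Sobic.004G220200 was at 0.227 FPKM in milk-stage internodes and 1.05 FPKM at maturity, next to the most abundant member. Sobic.004G220101 and Sobic.004G220900 were listed at 0 at each stage, and Sobic.004G221000 was at 0.0918 and 0.0797 FPKM. The 4 loci around the chromosome 1 copy were at 0 at each stage except Sobic.001G160300, which was at 0.0186 FPKM in milk-stage internodes and listed at 0 at maturity. The next locus on either side was expressed, Sobic.001G160200 at 6.22 and 18.5 FPKM and Sobic.001G160800 at 21.5 and 79.8 FPKM, both outside the 2 loci taken on each side and chosen after their values were seen.

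**Figure D5:**
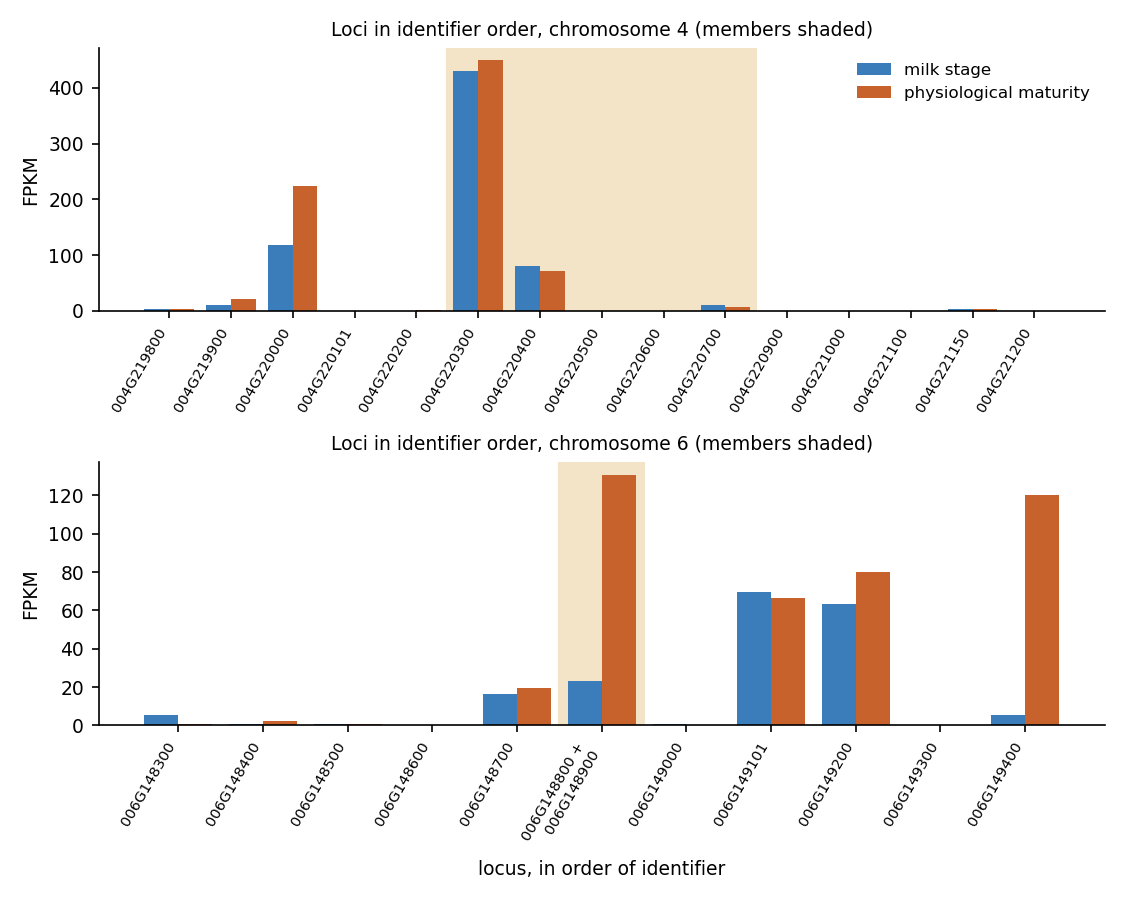
FPKM at each stage, as bars from 0, for the chromosome 4 and chromosome 6 members (shaded) and 5 loci on each side in identifier order, which is not to genomic scale. On chromosome 4 the signal of the array sits in its first 2 copies, and on chromosome 6 the 2 loci on each side of the shaded row show no such increase, while Sobic.006G149400 at the right edge goes from 5.58 to 120 FPKM.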

How the data were processed

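Per the labels' protocols, total RNA from middle internodes was made into stranded total RNA libraries, 2 per stage. The submitters' processing notes list HISAT2 2.0.5, Bowtie2 2.2.9, Cuffdiff (version not listed) and cutadapt 1.8.1 without their roles. Not given in the sources used here: genome build, strand setting and treatment of multiply mapped reads. All FPKM values were computed and deposited by the authors, 1 per locus and stage. Which measure of library size was used for them is not stated here.

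Rows whose identifier field holds a member were taken, a joined row as 1 locus. Differences used a pseudocount of 1 FPKM, loci at 1 FPKM or more at either stage, and a limit of 2-fold. The planned limma test was not possible with 1 value per stage. Named genes are all members, 10 pathway genes and 2 loci on each side of each group. Members and lists were chosen with earlier results of these data known. The planned lists by product words, including the tissue check, could not be formed: 0 of 34129 identifiers matched the reference gene table. Alternatives were 2 pseudocounts, 3 scalings, 2 filters, a 4-fold limit, sums without certain rows and plain ratios. The calculation was tested on simulated data. Depth is unknown, so no counting error is given. Python 3.11.15, numpy 2.4.6, pandas 2.3.3 and matplotlib 3.10.9 were used.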

Additional observations from a re-analysis of the deposited data

How the results depend on the processing

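The count of 1 family row at least 2-fold apart was the same under each of the 8 alternatives tried (2 pseudocounts, 3 scalings, 2 filters and a 4-fold limit). Leaving out the filter could not change it, since with a pseudocount of 1 FPKM a 2-fold difference requires at least 1 FPKM. Nor could a minimum of 5 FPKM or the 4-fold limit, because the chromosome 6 row was at 131 FPKM at maturity and 5.43-fold apart. Smaller pseudocounts move differences toward the plain ratio, whose log2 was from -0.34 to 0.06 for the compared chromosome 4 rows. Only the 3 scalings could therefore have changed the count. The log2 difference of the family sum (0.27) moved to 0.87 without the most abundant copy and was 0.02 for the chromosome 4 rows alone, a choice added after seeing the data. That of Sobic.004G220500, under 1 FPKM at each stage, went from -0.21 to -0.97 with a pseudocount of 0.1, which weighs less on low values. Over all loci, 3318 were at least 2-fold higher with equal sums against 2163 as deposited, and higher loci were 69.7% of those apart against 51.8%. Equal sums moved the median of all loci by 0.23. A 4-fold limit left 416 higher and 427 lower loci, against 2163 and 2011. The pathway list, whose alternatives were added later, had 3 or 4 genes at least 2-fold higher and 0 lower under each pseudocount and scaling. Its median ran from 0.50 to 0.79, and median-of-ratios scaling gave 7 higher and 3 lower values. No paired analysis was possible because each stage has a single deposited column, and for the same reason no library could be left out.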

Other observations

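Further along chromosome 6, Sobic.006G149400, the fifth locus after the joined row in identifier order, was at 5.58 FPKM in milk-stage internodes and 120 FPKM at maturity, with a log2 difference of 4.20. Sobic.006G149200 between them was at 63.2 and 80.1 FPKM. These loci were chosen after their values were seen, and the table gives no names for them. Of the 30 loci within 5 places of the family groups, 14 were compared, 3 were at least 2-fold higher and 1 at least 2-fold lower, beside 11.5% and 10.7% over all loci compared.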
